A study of Arabidopsis thaliana with 4 samples.

Results

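The genes described here encode the spliceosomal small nuclear RNAs (snRNAs) of Arabidopsis thaliana. They are all 82 genes of biotype snRNA on the 5 nuclear chromosomes in the RefSeq gene table of assembly TAIR10.1, which lists 37899 nuclear genes in all. The choice used no measured value, though it was made with earlier results of these data known. Each gene was set beside the peaks of chromatin immunoprecipitation followed by sequencing (ChIP-seq) for FHY1, which carries phyA, a photoreceptor for far-red light, into the nucleus. The study asked which genes FHY1 associates with in far-red light. All libraries came from 1 group, fhy1-1 mutant seedlings with a GFP-FHY1 transgene driven by 35S, a promoter active in most cells, dark-grown to an age of 4 days and then kept in far-red light for 3 h. The ChIP was done in 3 biological replicates from cross-linked seedlings, and an input DNA sample was not analysed here. The labels name an antibody against GFP, while the design text names one against FHY1. No other genotype, light treatment or mock precipitation was analysed here, so all values describe where peaks lie in this 1 condition.

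The snRNAs form the RNA core of the spliceosome, the machine that removes introns from messenger RNA precursors. U1 pairs with the upstream splice site, U2 with the branch point, U4 holds U6 inactive until the machine is assembled, U5 aligns the exons, and U6 takes part in catalysis. U12, U4atac and U6atac serve the minor spliceosome, which removes a rare class of introns. RNA polymerase II transcribes most snRNA genes and RNA polymerase III those of U6 and U6atac, and in plants both kinds share an upstream sequence element and a TATA box. No promoter or gene sequence was used here, and the gene table gives no strand, so upstream and downstream sides of a gene are not told apart.

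The table names 14 U1, 23 U2, 11 U4, 14 U5 and 14 U6 genes and 6 genes of the minor spliceosome. Of these 6, 2 are entries for U12, 1 is U4atac and 3 are U6atac, of which AT5G40395 is spelled U6acat. Their median annotated length was 153 bp, and 37 of the 82 overlapped or touched a protein-coding gene. The names of 11 entries end in p, and those entries had a median length of 69 bp. The locus numbers of 13 entries followed the numbering of the protein-coding genes on either side, and those of the other 69 did not. The names of 7 entries among the 13, namely U12, U2.2, U2.3, U2.4, U2.6, U2.7 and U6.29, were used by a second entry 3491 to 16627 bp away (punctuation and marks in the names set aside). The table does not say whether both members of such a pair exist.

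At 53 of the 82 snRNA genes a peak of at least 1 replicate overlapped the gene by 1 bp or more. The other 29 (35.4%) had no peak, against 25.2% of protein-coding, 36.3% of tRNA, 41.8% of snoRNA and 66.9% of miRNA genes. Replicate 1 had a peak over 27 genes (32.9%, against 25.5% of all nuclear genes), replicate 2 over 41 (50%, against 54.2%) and replicate 3 over 37 (45.1%, against 45.7%). The lists they came from hold 8423, 28170 and 19150 peaks over 9.51, 22.4 and 19 Mb in replicates 1, 2 and 3, and the sequencing depth behind them is unknown. Peaks of at least 2 replicates overlapped 33 snRNA genes (40.2%, 95% Wilson interval 30.3% to 51.1%), against 42.1% of all nuclear genes. Peaks of all 3 overlapped 19 (23.2%, 15.4% to 33.4%), against 19.3%. These shares lie near those of all genes, which are mostly far longer than the snRNA genes. At least 2 replicates rested in part on replicate 3, without which the count of 33 was 21. By pair, 21 genes were overlapped in both replicates 1 and 2, 23 in both 1 and 3, and 27 in both 2 and 3. Intervals here cover counting error only.

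A comparison by position gives less weight to gene length, since each gene then counts as 1 point. The midpoints of 31 snRNA genes lay in peaks of at least 2 replicates (37.8%), against 7.29% of the midpoints of all nuclear genes. Those of 17 lay in peaks of all 3 replicates (20.7%), against 2.57%. A summit, the highest point of a peak as deposited, lay within 250 bp of the midpoint of 21 snRNA genes in at least 2 replicates (25.6%), against 2.81% of all nuclear genes. For 10 snRNA genes this held in all 3 replicates (12.2%), against 0.905%. Midpoints of long protein-coding genes lie far from both gene ends, and of them 5.23% lay in peaks of at least 2 replicates. Among other short genes this share was 46.7% for tRNA, 23.7% for snoRNA and 7.67% for miRNA genes. For all 3 replicates it was 22.1%, 9.76% and 3.07% in the same order. A high share by midpoint was thus not particular to snRNA genes. No test was made of these shares.

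Among other classes of short genes, tRNA genes were close to the snRNA genes, while snoRNA and miRNA genes had lower shares. Of 625 tRNA genes, 294 were overlapped in at least 2 replicates (47%, interval 43.2% to 51%) and 139 in all 3 (22.2%). Of 287 snoRNA genes, 85 were overlapped in at least 2 (29.6%, 24.6% to 35.1%) and 39 in all 3 (13.6%). Of 326 miRNA genes, it was 42 (12.9%, 9.67% to 17%) and 12 (3.68%). A summit within 250 bp of the midpoint in at least 2 replicates was found for 37.1% of tRNA genes, 4.88% of snoRNA genes and 0.613% of miRNA genes. The interval of the snRNA share overlaps those of the tRNA and snoRNA shares.

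**Figure D1:**
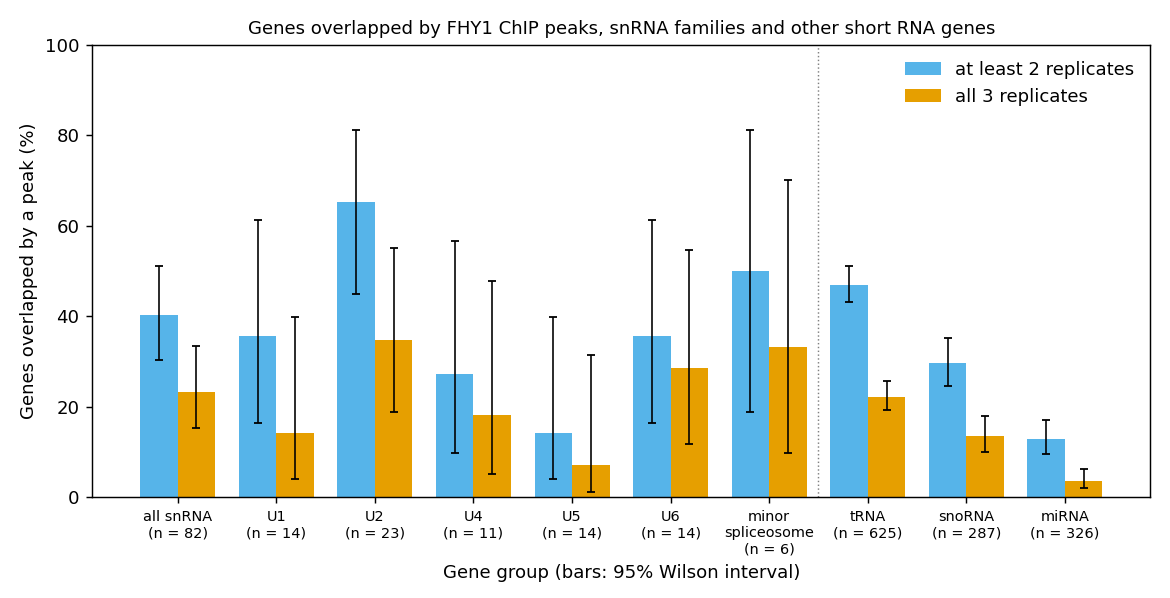
Percentage of genes overlapped by an FHY1 ChIP peak (y axis) in at least 2 replicates (blue) and in all 3 (orange), for all snRNA genes, each snRNA family and the tRNA, snoRNA and miRNA genes of the same table (x axis). Error bars are 95% Wilson intervals; U2 genes stand at 65.2% and U5 genes at 14.3% for at least 2 replicates, with wide intervals in every family.

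U2 genes had the highest share overlapped in at least 2 replicates and in all 3, and U5 genes the lowest. The shares of all nuclear genes were 42.1% and 19.3%. In replicate 3 alone the minor spliceosome genes stood highest (66.7%, against 60.9% for U2), and U1 and U5 genes were equal at 28.6%. Of the 23 U2 genes, 15 were overlapped in at least 2 replicates (65.2%, interval 44.9% to 81.2%) and 8 in all 3. Of the 14 U5 genes, 2 were overlapped in at least 2 (14.3%, 4.01% to 39.9%) and 1 in all 3. U1 and U6 genes each had 5 of 14 in at least 2 replicates (35.7%, 16.3% to 61.2%), and U4 genes 3 of 11 (27.3%, 9.75% to 56.6%). In all 3 replicates it was 2 U1, 4 U6 and 2 U4 genes. Of the 6 minor spliceosome genes, 3 were overlapped in at least 2 replicates and 2 in all 3. For at least 2 replicates the intervals of U2 and U5 do not overlap, and those of all other pairs of families do. For all 3 replicates the intervals of U2 (18.8% to 55.1%) and U5 (1.27% to 31.5%) overlap. Genes are not replicates and some share a peak, so neither comparison is a test of a family difference. Without replicate 2, and equally without replicate 3, the U2 count was 9, and the count for U1 was 2 without replicate 2 and 3 without replicate 3. The U5 count was 1 without replicate 1 or replicate 3.

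Annotated length differs between these families. The table gives 5 of the U2 genes a length over 300 bp, and without them 12 of 18 U2 genes were overlapped in at least 2 replicates (66.7%). Among the U5 entries, 4 were shorter than 50 bp. By midpoints, 14 of 23 U2 genes (60.9%) and 2 of 14 U5 genes (14.3%) lay in peaks of at least 2 replicates. For short genes under wide peaks the midpoint rule nearly repeats the overlap rule, so this does not set length aside. A summit within 250 bp of the midpoint in at least 2 replicates was found for 10 of 23 U2, 4 of 14 U6 and 2 of 6 minor spliceosome genes. It was found for 2 of 14 U5, 2 of 14 U1 and 1 of 11 U4 genes, against 2.81% of all nuclear genes. In all 3 replicates it was 4 U2, 4 U6 and 2 minor spliceosome genes, and 0 U1, U4 and U5 genes.

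The U6 genes overlapped in every replicate, which carry the catalytic RNA, had the smallest median spread of summits between replicates of the 6 families. The medians were 40 bp for 4 U6, 53.5 bp for 2 minor spliceosome, 144 bp for 2 U1 and 247.5 bp for 8 U2 genes. They were 1031 bp for 2 U4 genes and 925 bp for 1 U5 gene. Most families had too few such genes for this order to be read as a family trait. Peaks of all 3 replicates overlapped U6-1 (AT3G14735), U6.2 (AT5G09140), U6.3 (AT4G07875) and U6.4 (AT4G04615). In each of the 4 the summits stood beside the gene, outside its annotated ends, on the same side in every replicate. The 3 summits of a gene lay within 21 to 90 bp of each other, with a median of 40 bp, and at 71 to 206 bp from the gene midpoint. The other 15 genes overlapped in all 3 replicates had summits that spread over 18 to 1186 bp. Among them U2.5 had 18 bp, U1.5 had 21 bp and U6acat had 31 bp.

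U6.4 lies 1928 bp from the nearest protein-coding gene. Its peaks on chromosome 4 ran from 1482825 to 1483540 in replicate 1, from 1482718 to 1483488 in replicate 2 and from 1482727 to 1483512 in replicate 3. They held 382, 484 and 578 tags with folds of 3.86, 5.09 and 4.94 in replicates 1, 2 and 3. Fold is the enrichment that the authors give each peak, against a background not named in the sources, and it ranks peaks within a list. The folds stood at percentiles 41.8, 82.3 and 74.8 of their lists. Summits were 149, 129 and 150 bp from the gene midpoint, towards higher coordinates.

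U6-1 is annotated 251 bp from the nearest protein-coding gene, AT3G14730. In replicate 1 its peak ran from 4951095 to 4951887 on chromosome 3, in replicate 2 from 4951103 to 4952312 and in replicate 3 from 4950936 to 4951808. The folds were 3.87, 5.22 and 5.17 in replicates 1, 2 and 3, with 323, 799 and 490 tags. Its summits lay 127, 173 and 170 bp from the midpoint towards lower coordinates, and 174, 128 and 131 bp from the nearest protein-coding gene. Replicates 2 and 3 were alike in fold, and replicate 1 was lower.

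U6.2 had the highest fold of any snRNA gene, but in replicate 2 alone. The folds were 3.83, 8.15 and 4.15 in replicates 1, 2 and 3, at percentiles 40.5, 99.4 and 49.7. The replicate 2 peak on chromosome 5 from 25296640 to 25297257 held 493 tags, those of replicates 1 and 3 held 203 and 312. Summits lay 71, 105 and 81 bp from the midpoint. U6.2 overlaps or adjoins the protein-coding gene AT5G63060, and the summits were 51 to 85 bp outside any protein-coding gene. U6.3, which overlaps or adjoins the gene NARA5, had folds of 3.17, 5.56 and 3.80, and its replicate 1 peak at percentile 9.31 was among the weaker ones of that list. Its summits lay 116, 188 and 206 bp from the midpoint.

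The remaining 10 U6 entries had less. U6.11p, an entry of 24 bp, had peaks in replicates 1 and 3 with folds of 3.01 and 3.11, near the lowest in those lists. U6-26 (AT3G13855) and U6.8p were overlapped in replicate 2 only, with folds of 4.27 and 3.01. U6.5 and the second entry named U6.29 (AT5G06815) were overlapped in replicate 3 only, with 3.59 and 3.94. U6-29 (AT5G46315), the entry of 912 bp with the same name, had no peak, nor had U6.6, U6.7, U6.9p and U6.10p. Of the 14 U6 entries, then, 4 had a peak in every replicate, 1 in 2 replicates, 4 in 1 and 5 in none.

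**Figure D2:**
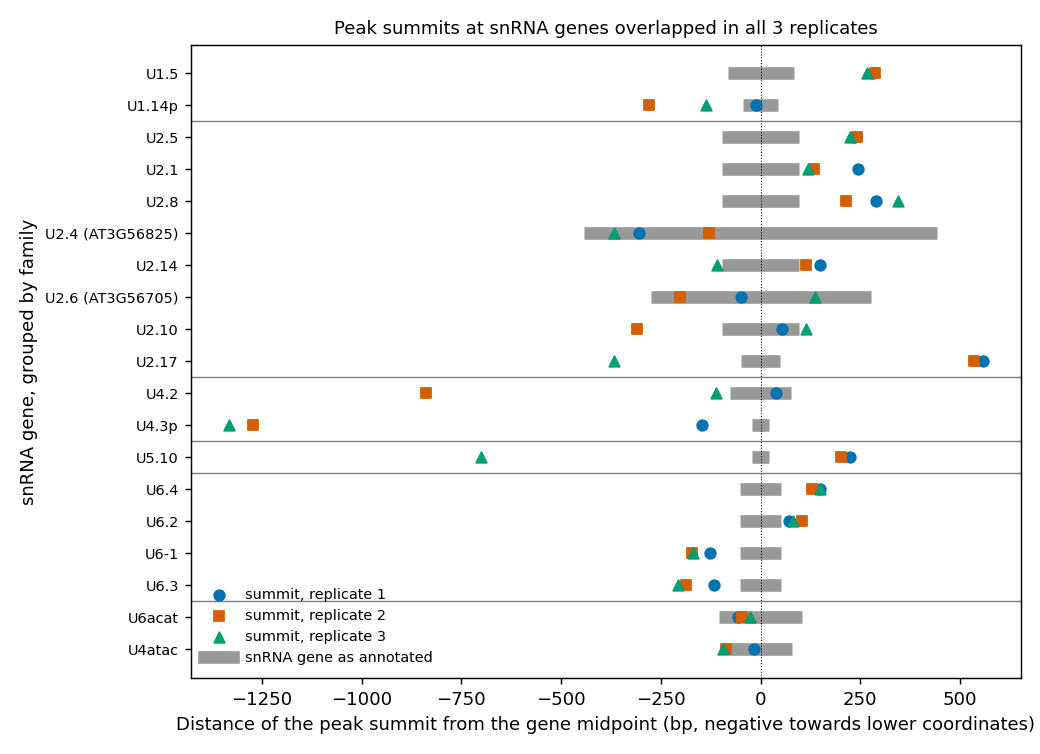
Distance in bp of each deposited peak summit from the gene midpoint (x axis, negative towards lower coordinates) for the 19 snRNA genes overlapped in all 3 replicates (y axis, grouped by family); grey bars are the annotated genes and each symbol is 1 replicate. The summits of U6-1, U6.2, U6.3 and U6.4 sit together on one side of the gene, while those of U4.2, U4.3p, U5.10 and U2.17 spread over 876 to 1186 bp.

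The U2 genes, for the RNA that marks the branch point, made up 8 of the 19 genes with a peak in every replicate. They were U2.1, U2.4 (AT3G56825), U2.5, U2.6 (AT3G56705), U2.8, U2.10, U2.14 and U2.17. U2.8 (AT5G09945) had the highest mean percentile of fold among the 19, at 80.6. Its folds were 4.70, 5.21 and 5.51 in replicates 1, 2 and 3, with 527, 976 and 587 tags, on chromosome 5 from 26966894 to 26967872 in replicate 1. The summits lay 290, 215 and 345 bp from the midpoint, and 51 to 181 bp from the nearest protein-coding gene. U2.8 was the highest of the 19 in replicate 1, U6.2 in replicate 2 and U2.1 in replicate 3, so the order of the genes differed between replicates.

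U2.5 (AT5G09585) had summits that agreed within 18 bp, the closest of the 19. They lay 234, 242 and 224 bp from the midpoint and 83 to 101 bp from the nearest protein-coding gene. The folds were 3.38, 5.51 and 5.61 in replicates 1, 2 and 3, and the tags, at 1391, 1886 and 1761, were the highest at any U2 gene with a peak in every replicate. Replicate 1 stood apart here, at percentile 18.7 against 88.1 and 87.5. U2.10 (AT2G04375) had the most even folds, 4.48, 4.53 and 4.54, while its summits spread over 424 bp.

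U2.1 (AT1G05273), which overlaps or adjoins AT1G16820, had folds of 3.46, 4.03 and 5.79, and its summits in replicates 2 and 3 lay in that protein-coding gene. U2.14 had 3.91, 4.99 and 3.27, with summits on either side of the gene. U2.6 (AT3G56705) had 3.44, 5.14 and 5.07, and U2.4 (AT3G56825) had 3.76, 4.98 and 4.12. The summits at these 2 entries lay within the annotated 551 and 883 bp in every replicate. At U2.17 the folds were 3.33, 6.64 and 5.13, but the summits were 368 to 557 bp away. The same peaks covered U5.10, an entry of 42 bp that lies 266 bp from U2.17, so these 2 genes are not separate observations.

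A further 7 U2 entries had peaks in 2 replicates. They were U2.7 (AT5G61455), with folds of 6.10 and 3.72 in replicates 2 and 3, U2.7 (AT5G09010), U2.6 (AT3G08695), U2.3 (AT3G09005), U2.15, U2.10b/12 and U2.11. Those in 1 replicate were U2.2 (AT3G57645), U2.3 (AT3G57765) and U2.4 (AT3G08735). No peak overlapped U2.2* (AT3G08945), U2.9, U2.13, U2.16 or U2.18p. The lowest mean percentile of fold among U2 genes with a peak in 2 or more replicates was at U2.3 (AT3G09005), whose folds were 3.36 and 2.98 in peaks of 4421 and 2651 bp.

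U1 genes, for the RNA that recognises the upstream splice site, had 2 members with a peak in every replicate. U1.5 (AT1G08115) had folds of 4.37, 5.63 and 4.82 in replicates 1, 2 and 3, with 957, 875 and 957 tags. Its replicate 1 peak ran from 2537582 to 2538956 on chromosome 1. The summits lay 281, 288 and 267 bp from the midpoint, within 21 bp of each other, and 171 to 192 bp from the nearest protein-coding gene. U1.14p, an entry of 86 bp with no protein-coding gene within 1741 bp, had folds of 3.49, 4.69 and 3.92. Its summits spread over 267 bp.

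The remaining U1 genes had peaks in fewer replicates. U1.12p had folds of 3.39 and 6.10 in replicates 2 and 3, U1.2 had 3.17 and 3.64 in the same replicates, and U1.7 had 3.44 and 3.29 in replicates 1 and 2. U1.8, U1.9 and U1.10 were overlapped in replicate 2 only and U1.13p in replicate 1 only. U1.3, U1.4, U1.6, U1.11p and U1a* had no peak.

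Several U1 and U4 genes lie side by side. In 7 places a U1 and a U4 entry were 189 to 282 bp apart. The pair U4.1* and U1a* had no peak in any replicate. U4.5 with U1.4, U4.8 with U1.9, U1.8 with U4.7, and U4.6 with U1.10 were overlapped in replicate 2 only, at 1 or both genes. The pairs with more were U1.14p with U4.10 and U4.3p with U1.13p, and in each a name ends in p. In replicates 1 and 3 a single peak covered both U1.14p and U4.10.

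Of the U4 genes, whose RNA keeps U6 inactive, 2 were overlapped in every replicate, and at neither did the summits agree. U4.2 (AT3G06900) had folds of 4.11, 4.42 and 4.74 in peaks of 1837, 2659 and 1654 bp, with summits 38, 838 and 112 bp from the midpoint. U4.3p, which overlaps or adjoins PNG1, had folds of 3.22, 6.87 and 3.57, with summits at 146, 1271 and 1332 bp. The highest point of these wide peaks was thus far from the snRNA gene in at least 1 replicate. U4.10 was overlapped in 2 replicates, U4.5, U4.6, U4.8, U4.9 and U4.11p in 1, and U4.1*, U4.4 and U4.7 in none.

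At U5 genes, for the RNA that aligns the exons, peaks were sparse. Apart from U5.10, U5.6 was overlapped in replicates 1 and 3, with folds of 3.31 and 3.67 and summits 196 and 200 bp from the midpoint. U5.5 and U5.4 had a peak in replicate 3, with 5.31 and 3.86, and U5.1b in replicate 2, with 3.23. The other 9 entries, U5.1*, U5.2, U5.3, U5.7, U5.8, U5.9, U5.11, U5.12 and U5.13, had none.

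Among minor spliceosome genes, U4atac (AT4G06375) and the entry U6acat (AT5G40395) had peaks in every replicate with summits close to the gene. U6acat had folds of 4.28, 3.68 and 5.25 in replicates 1, 2 and 3, and its summits lay 57, 46 and 26 bp from the midpoint, inside the annotated gene each time. It overlaps or adjoins AT5G40400, in which the summits of replicates 2 and 3 also lay. U4atac, 2 bp from AT4G16070, had 4.63, 3.90 and 3.77, with summits at 17, 87 and 93 bp. U6atac2 had peaks in replicates 2 and 3 with folds of 3.43 and 5.38. U12 (AT1G61275) had 1 peak, in replicate 3, of 270 bp with 195 tags and a fold of 6.40, the highest at any snRNA gene in that list, and a summit 17 bp from the midpoint. The second U12 entry (AT1G08367) and AT5G06055, a U6atac entry, had none.

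**Figure D3:**
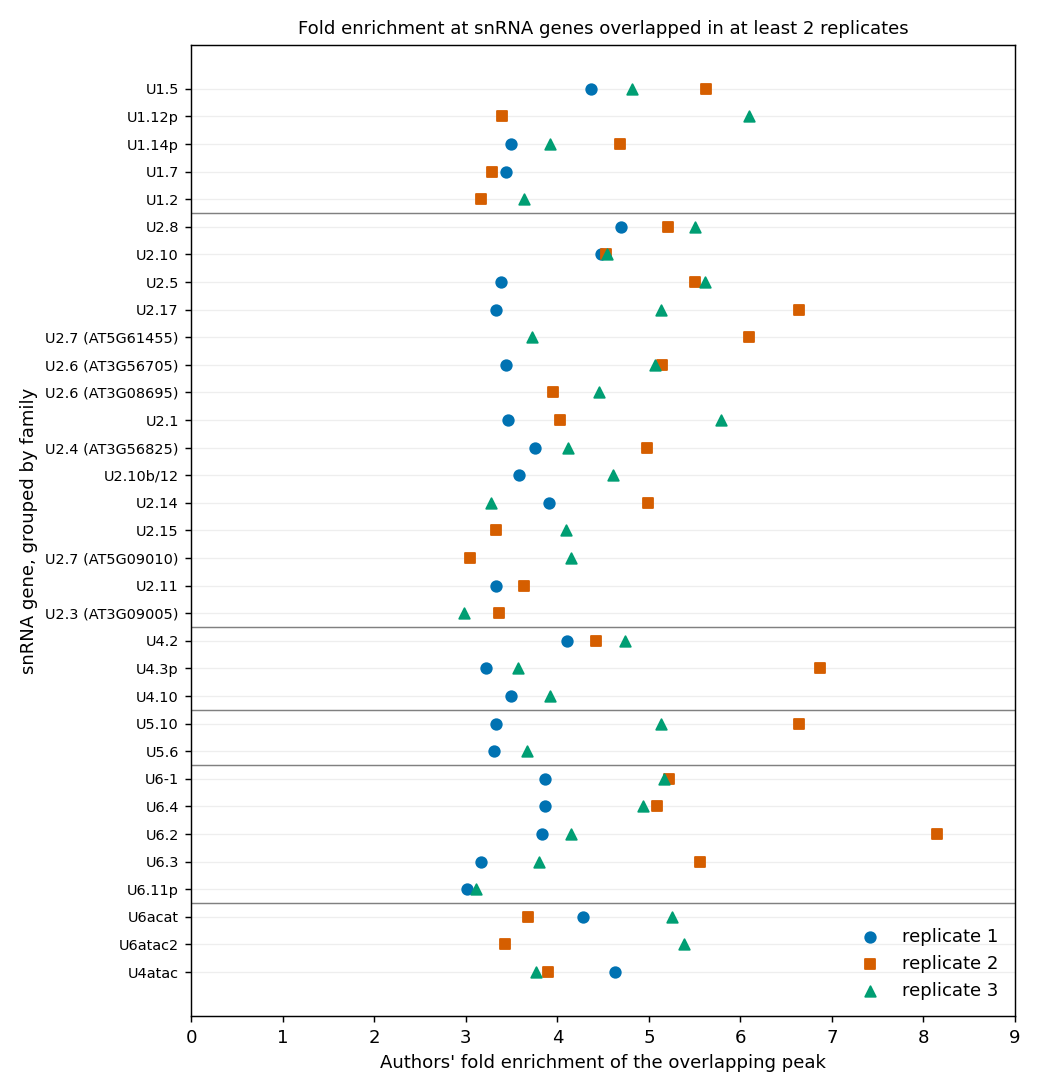
Authors' fold enrichment (x axis) of the peak over each of the 33 snRNA genes overlapped in at least 2 replicates (y axis, grouped by family), with 1 symbol per replicate. Replicate 1 folds end at 4.70, while those of replicate 2 reach 8.15 at U6.2; U2.17 and U5.10 lie under the same peaks.

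By fold, peaks over snRNA genes stood low in the list of replicate 1 and near the middle in replicates 2 and 3. Their median percentiles of fold were 30.2, 56.5 and 49.7. By tags they stood above the lists, with medians of 642, 689 and 711, against 444, 360 and 451.5 in replicates 1, 2 and 3. The 24 peaks of replicate 1 over snRNA genes had a median fold of 3.62, against 4.06 for the list. In replicate 2 the 39 peaks had a median of 4.09, against 3.92, and in replicate 3 the 35 peaks had 4.15, against 4.16. Above the list's median fold lay 6 of the 24 in replicate 1, 23 of the 39 in replicate 2 and 17 of the 35 in replicate 3. The peaks were wider than the lists' medians, at 1150, 1022 and 1119 bp, against 957, 689 and 859 bp in replicates 1, 2 and 3. Peaks over any gene had median widths of 1007, 727 and 899 bp, and those over tRNA genes 1069, 938 and 1077 bp. Peaks over snoRNA genes had 1087, 927.5 and 1138 bp. What the width reflects was not tested. The deposited false discovery rate of the snRNA peaks was at most 0.74%, 1.68% and 1.15%.

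The authors' series list, which gives a peak height in 3 columns that were not matched to replicates, held 11 regions over 10 snRNA genes (12.2%, interval 6.76% to 21%), against 6.95% of all nuclear genes. These 10 are among the 19 with a peak in every replicate. They include 4 of the 4 such U6 genes, 2 of the 2 U1 genes, 3 of the 8 U2 genes, 1 of the 2 minor spliceosome genes, and none of the U4 and U5 genes. Region boundaries here are the stretch common to the 3 columns, and heights are in the authors' unit of signal, whose scaling is not stated.

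U1.5 had the highest region, on chromosome 1 from 2538101 to 2538671. Its heights were 240, 391 and 265 in columns Sample1, Sample2 and Sample3 (mean 299 ± 80.9, SD, n = 3), at percentile 98.1 of the list. U6.4 had 182, 270 and 213, from 1483091 to 1483490 on chromosome 4 (222 ± 44.6). Over all 3419 regions the median of the mean heights was 167. U2.1 had 2 regions, at 217 ± 58.8 and 159 ± 28.4, and U2.8 had 204 ± 23.2. U4atac had 198 ± 16.5, U6-1 had 181 ± 40.5, U6.2 had 167 ± 92.1, U1.14p and U6.3 both averaged 153, and U2.6 (AT3G56705) had 143 ± 53.7. Apart from U1.5, these regions lay between percentiles 31.2 and 83.4. At U6.2 the column Sample2 stood apart, with 273 against 106 and 122.

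**Figure D4:**
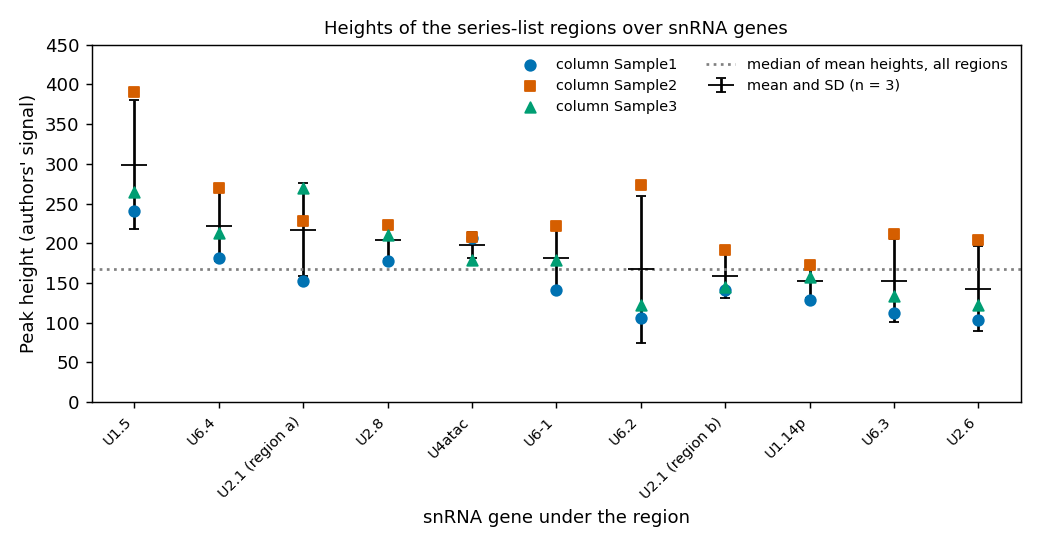
Peak height in the authors' signal unit (y axis) of the 11 series-list regions over snRNA genes (x axis, by falling mean), with 1 symbol per column and the mean and SD of the 3; the dotted line is the median of mean heights over all 3419 regions. U1.5 stands highest at a mean of 299, and 3 genes (U1.14p, U6.3 and U2.6) have all their regions below the line.

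The 13 entries whose locus numbers follow those of their neighbours had peaks more often than the other 69. Of the 13, 8 had peaks in at least 2 replicates (61.5%, interval 35.5% to 82.3%) and 7 in all 3, against 25 (36.2%, 25.9% to 48%) and 12 of the 69. The 7 were U1.5, U2.4, U2.5, U2.6, U4.2, U6-1 and U6acat. For all 3 replicates the intervals were 29.1% to 76.8% for the 13 and 10.2% to 28% for the 69. This split was added after seeing the data and genes are not replicates, so the intervals are no test of it. The median annotated length was 208 bp for the 13 against 124 bp for the 69. For the 7 names used by 2 entries, the entry with the number in order had peaks in more replicates for 4 names (U12, U2.2, U2.4 and U2.6), the other entry for 2 (U2.3 and U6.29), and both had 2 for U2.7. The 4 named U2.2, U2.3, U2.4 and U2.6 in order are 551 to 883 bp long, against 194 or 195 bp for their namesakes. Those of U2.7 and U6.29 in order are 831 and 912 bp long, against 195 and 101 bp. Both U12 entries are 175 bp long. What this split reflects was not tested.

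Overlap in at least 2 replicates was most frequent among the 15 snRNA genes over 500 bp from a protein-coding gene. Overlap in all 3 replicates followed no steady order. Of the 37 snRNA genes that overlapped or touched one, 13 had peaks in at least 2 replicates (35.1%). Of the 30 at 1 to 500 bp from one it was 11 (36.7%), and of the 15 farther away it was 9 (60%). The share of all nuclear genes was 42.1%. The 9 include U1.14p and U4.10, which lie under the same peaks in replicates 1 and 3 and are not separate observations. Peaks of all 3 replicates overlapped 7 of the 37 (18.9%), 9 of the 30 (30%) and 3 of the 15 (20%), against 19.3% of all nuclear genes. The intervals of the 3 distance classes overlap in both comparisons. By single replicate the shares rose with distance in replicate 1 (29.7%, 33.3% and 40%) and replicate 3 (35.1%, 46.7% and 66.7%). They did not in replicate 2 (48.6%, 53.3% and 46.7%). The summits lay inside a protein-coding gene in 5 of 27 gene and peak combinations in replicate 1, 14 of 41 in replicate 2 and 10 of 37 in replicate 3. They lay inside the snRNA gene itself in 9, 4 and 5. In most gene and peak combinations, then, the highest point lay outside the snRNA gene. Over all combinations its median distance from the gene midpoint was 182, 188 and 170 bp in replicates 1, 2 and 3. The snRNA genes, with a median length of 153 bp, are much shorter than these peaks.

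No replicate had a peak over 29 snRNA genes (35.4%, against 36.3% of tRNA and 25.2% of protein-coding genes). Their nearest peak lay at 7 to 3428 bp, with a median of 933 bp. It was within 250 bp for 7 of them and farther than 1000 bp for 14. Entries with names ending in p had a peak in at least 2 replicates in 4 of 11 cases (36.4%), and the other entries in 29 of 71 (40.8%). An absent peak says only that no stretch passed the authors' thresholds.

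Genes for proteins of snRNA transcription, of snRNPs and of related complexes were looked at from a list of 35, all found in the table. The list was chosen with earlier results of these data known, so its shares cannot stand as independent evidence. Peaks of at least 2 replicates overlapped 24 (68.6%, interval 52% to 81.4%), against 50.8% of all protein-coding genes, and peaks of all 3 overlapped 13 (37.1%, 23.2% to 53.7%), against 23.6%. Their median length was 2119 bp, against 2078 bp. By midpoints no excess was seen, though the list is too short to be told apart from other protein-coding genes. The midpoints of 0 of the 35 lay in peaks of at least 2 replicates (0%, interval 0% to 9.89%), against 5.23% of all protein-coding genes. The list holds LSM1A and LSM1B, whose proteins belong to a cytoplasmic complex that promotes the removal of caps from messenger RNA. They do not belong to the ring that binds U6. Without these genes 23 of 33 were overlapped in at least 2 replicates (69.7%) and 12 in all 3 (36.4%). SRD2, an Arabidopsis subunit of the complex that activates snRNA transcription, had folds of 3.58, 5.53 and 4.89 in replicates 1, 2 and 3. The genes of the TATA-binding protein, TBP1 and TBP2, had 4.69, 3.61 and 4.76, and 5.03, 7.08 and 5.49.

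Of the genes for snRNP proteins, that of U2B″ (AT2G30260), which binds U2 RNA, had 4.95, 5.34 and 6.32. Those of YLS8, a U5 snRNP protein, and STA1 (AT4G03430), which joins U5 to the U4 and U6 RNAs, had 5.99, 4.42 and 4.51, and 4.95, 4.06 and 4.52. The coilin gene (AT1G13030), for a scaffold protein of Cajal bodies, had 4.99, 3.56 and 4.79. BRR2A (AT1G20960), LSM3B, AT1G28060 (PRP3), AT2G18740 (SME1) and AT3G07590 (SMD1A) were also overlapped in all 3, as was LSM1B. The series list overlapped TBP1, TBP2, U2B″ and PRP3, and LSM1B as well. The genes of U2A′, LSM1A, LSM5, LSM8 and SMD1B (AT4G02840) had no peak, and 6 genes had one in 1 replicate.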

How the data were processed

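ChIP-seq for FHY1 was measured in 3 biological replicates of 1 group, and samples were grouped by their titles. Bowtie and the build TAIR10 are named in the submitters' processing notes. Not given in the sources used here were the peak caller, its background and its treatment of reads that match several places. Since snRNA genes are copies of each other, reads may match more than 1 of them, and this was not tested. Per peak, the deposited lists of the replicates give the tag count, a score, a ratio (fold enrichment) and a false discovery rate in percent. Columns have no header and were read from the layout. The authors' score was used only to rank peaks, and tag counts were not normalised. The deposited series list gives a height as its signal.

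Overlaps of at least 1 bp between TAIR10 peaks and the genes of the TAIR10.1 table (nuclear coordinates taken to be shared) were computed in Python 3.11.15 (pandas 2.3.3, scipy 1.17.1), checked on simulated intervals. A series row counted by the stretch common to its 3 columns. Percentiles are ranks within a list. Counts were compared without a test, since there is 1 condition and genes are not replicates. The members, the protein list and the rules were chosen with earlier results of these data known. Genes were named if peaks of all 3 replicates or a series row overlapped them, up to 30, with the highest and lowest of each family and those without a peak, and all other members are named so that each is accounted for. The planned promoter motif search was not run, as no sequence was used here. The alternatives were 50% of the gene covered, a 250 bp window, a false discovery rate of 1% or less, lists of equal length, each replicate left out, and distance from protein-coding genes. Midpoints, summits, 1 entry per name and locus order were added after seeing the data.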

Additional observations from a re-analysis of the deposited data

How the results depend on the processing

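Of 94 values recomputed under the alternatives, 60 stayed within 1.5 times the reported count, or within 1 SD over replicates for the fold and the summit distance, and 34 did not. Fewer peaks or genes entered most of those 34 by construction. Apart from the midpoint and summit rules, the share of all nuclear genes was not computed under the alternatives. A lower count therefore does not show whether the snRNA share moved against that of all genes. With the strongest peaks of each list in equal numbers, 21 snRNA genes were overlapped in at least 2 replicates (reported 33) and 8 in all 3 (reported 19). By family the first count was then 9 for U2, 3 for U1, 1 for U5 and 1 for the minor spliceosome, and the median fold averaged 4.66 over replicates (reported 3.95 ± 0.293, SD, n = 3). At a false discovery rate of 1% or less, 11 were overlapped in all 3. With at least 50% of the gene covered, the series list overlapped 5 (reported 10). Among the 15 genes with no protein-coding gene within 500 bp, 9 were overlapped in at least 2 replicates, 3 in all 3 and 3 by the series list, and by family 4 U2, 2 U1, 2 U6, 1 U4, 0 U5 and 0 minor spliceosome genes in at least 2. Among the 13 entries in locus order it was 8, 7 and 3. With a summit within 250 bp of the midpoint it was 21 in at least 2 and 10 in all 3. Leaving out a replicate and asking for both others gave 21 to 27 genes, 9 to 13 for U2, 2 to 4 for U1 and 1 to 2 for U5. The summit distance, reported as 180 ± 9.17 bp, was 167 bp with 50% of the gene covered, 210 bp with the 250 bp window, 170 bp at a false discovery rate of 1% or less and 149 bp away from protein-coding genes. No paired analysis was possible because only 1 group had files. Depth is unknown, so an absent peak cannot be told apart from low coverage, and without the input, association with FHY1 cannot be told apart from unspecific signal.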
